A study of Mus musculus with 308 samples.

Results

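The kidneys of mice dosed with dimethyl fumarate (DMF) together with salts of monoethyl fumarate (MEF) were set against the kidneys of mice dosed with vehicle. The comparison holds 15 of the 308 arrays of the series, chosen by their titles: 8 combination arrays and 7 vehicle arrays. It reads all 28898 probe sets that carry a single gene symbol, which is 17097 genes. All mice were C57Bl/6, the labels give no age or sex, and each was dosed once daily for 10 days, with tissue taken 12 h after the last dose. The combination group received DMF at 100 mg/kg plus MEF at 79.2 mg/kg, given as a mixture of its calcium, magnesium and zinc salts. The vehicle group received 0.8% hydroxypropyl methylcellulose. The other kidney groups used below are 8 arrays of DMF at 100 mg/kg, 7 of MEF salts at 79.2 mg/kg, 8 of DMF at 179.2 mg/kg and 8 titled Nav, a name that the labels do not explain and for which no treatment is stated. RNA was taken from the whole organ and read on an Affymetrix mouse HT MG-430 PM array, and the labels do not say whether each kidney array is a separate animal, so the p-values measure the spread between arrays.

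DMF is an electrophilic ester of fumaric acid and an oral medicine for multiple sclerosis and psoriasis. Esterases remove its methyl groups, and the monoesters reach the circulation. MEF is the matching ethyl monoester and is part of an older fumarate mixture used in psoriasis. Fumarate esters bind cysteines of KEAP1, the protein that otherwise sends the transcription factor NRF2 (Nfe2l2) to the proteasome. NRF2 that escapes binds antioxidant response elements with a small MAF partner and turns on genes for quinone reduction, glutathione synthesis and conjugation, NADPH supply, heme breakdown and efflux of conjugates. In the kidney, the proximal tubule is the segment that reclaims filtered solutes and secretes organic anions, drugs and their conjugates into the urine.

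For 3 genes of this programme that were higher after the combination, and 1 interferon-stimulated gene that was lower, the 250 bases before the start site are shown because they hold the short motif that the pathway's transcription factor is known to read. They were chosen for that match: Cbr3, Nqo1, Ephx1, Gstp1 and Gstm1, which also rose, hold no match to the first motif in the same window. The bases are those of RefSeq's mouse assembly GRCm38.p6, on the gene's own strand, 5′ to 3′. Capitals mark TGACNNNGC (or GCNNNGTCA, its other strand), the core of the antioxidant response element, in the first 3. In the last, capitals mark GAAANNGAAA (TTTCNNTTTC on the other strand), the core of the interferon-stimulated response element.
Pir, chrX:164269181-164269430, + strand: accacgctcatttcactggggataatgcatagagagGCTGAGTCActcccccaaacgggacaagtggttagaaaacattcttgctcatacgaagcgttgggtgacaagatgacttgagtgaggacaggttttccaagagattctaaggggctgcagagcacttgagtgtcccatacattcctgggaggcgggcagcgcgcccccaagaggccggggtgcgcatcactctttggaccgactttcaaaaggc
Gclm, chr3:122245307-122245556, + strand: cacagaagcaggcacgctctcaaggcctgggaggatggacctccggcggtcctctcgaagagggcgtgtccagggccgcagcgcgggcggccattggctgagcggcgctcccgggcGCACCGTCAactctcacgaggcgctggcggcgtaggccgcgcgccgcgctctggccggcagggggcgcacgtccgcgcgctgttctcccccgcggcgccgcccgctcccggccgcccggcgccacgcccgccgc
Abcc2, chr19:43782058-43782307, + strand: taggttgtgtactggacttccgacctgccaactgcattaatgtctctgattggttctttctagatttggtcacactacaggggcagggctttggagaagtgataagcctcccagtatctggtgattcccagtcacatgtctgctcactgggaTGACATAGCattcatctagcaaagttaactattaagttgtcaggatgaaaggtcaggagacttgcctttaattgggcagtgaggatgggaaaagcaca
Ifit1, chr19:34640639-34640888, + strand: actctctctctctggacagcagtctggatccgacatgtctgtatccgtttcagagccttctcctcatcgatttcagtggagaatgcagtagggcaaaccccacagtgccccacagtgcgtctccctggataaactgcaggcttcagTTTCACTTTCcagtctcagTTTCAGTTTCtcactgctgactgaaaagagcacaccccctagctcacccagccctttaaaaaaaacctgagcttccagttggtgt
Of 40 tested NRF2 target genes with a promoter in the table, 9 (22.5%) held TGACNNNGC on either strand in these 250 bases, among them 8 of the 29 (27.6%) called higher, against 14% of the 8658 tested genes with a promoter and 10.2% of all 32851 promoters. Of 12 tested interferon-stimulated genes with a promoter, 6 (50%) held GAAANNGAAA, among them 3 of the 8 (37.5%) that were called lower. The share was 3.06% of the tested genes with a promoter and 2.98% of all promoters. The window ends at the start site, and a match is a description of letters, not a site of binding.

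Values are log2 expression, and 21.2% of those in the kidney sit at its lowest value of 2.14, so differences of dim genes are compressed. Tubule markers were bright on all arrays: the mean of 8 proximal tubule markers was 10.49 to 10.86 on the combination arrays and 10.78 to 10.85 on the vehicle arrays, and that of 4 thick ascending limb markers 11.15 to 11.44 and 11.31 to 11.50. B cell and T cell markers were dim, at 3.24 to 3.46 and 3.56 to 3.92 on the combination arrays. In genes chosen after their values were seen, Xist read 11.1 to 11.6 and Kdm5d, Eif2s3y and Uty the lowest value on all 46 kidney arrays, so the RNA of each was of the female pattern. Spiked-in hybridisation controls averaged 11.65 on the combination and 11.55 on the vehicle arrays (exact permutation test, two-sided p = 0.0816, adjusted over 4 array measures p = 0.279). In the tissue-wide sums that follow, fewer cells of a type and less RNA per cell cannot be told apart.

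The combination arrays were not uniform. On the first principal component, which held 26.4% of the variance, combination arrays 37, 38 and 39 lay at 8.17 to 16.62, while arrays 32 to 36 lay at -13.03 to 0.15 and the vehicle arrays at -5.75 to -0.35. The Nav arrays lay at 7.90 to 23.19, on the side of the 3 combination arrays. The second component (11.5%) separated the groups without overlap, at 0.80 to 14.89 for all 8 combination arrays and -16.96 to -3.38 for the vehicle arrays. The labels give no preparation or scan batch that could be set against this split. The mean of the spiked-in hybridisation controls differed along it, at 11.70 to 11.79 on combination arrays 37 to 39 and 11.41 to 11.67 on arrays 32 to 36. That mean was 11.45 to 11.63 on the vehicle arrays and 11.57 to 12 on the Nav arrays, and its part in the split was not tested. Of 118 genes named here and called against vehicle, 96 were also called with arrays 32 to 36 alone and 83 also against Nav in the same direction, 77 of them in both. Against Nav, Mgst3, Nlrc5, Slc7a12, Cyp7b1, Lcn2, Ifit2 and Egfl6, described below, did not pass (adjusted p = 0.0874, 0.0634, 0.22, 0.0982, 0.105, 0.0971 and 0.0755). The part of the 3 arrays in the results was not tested.

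**Figure D1:**
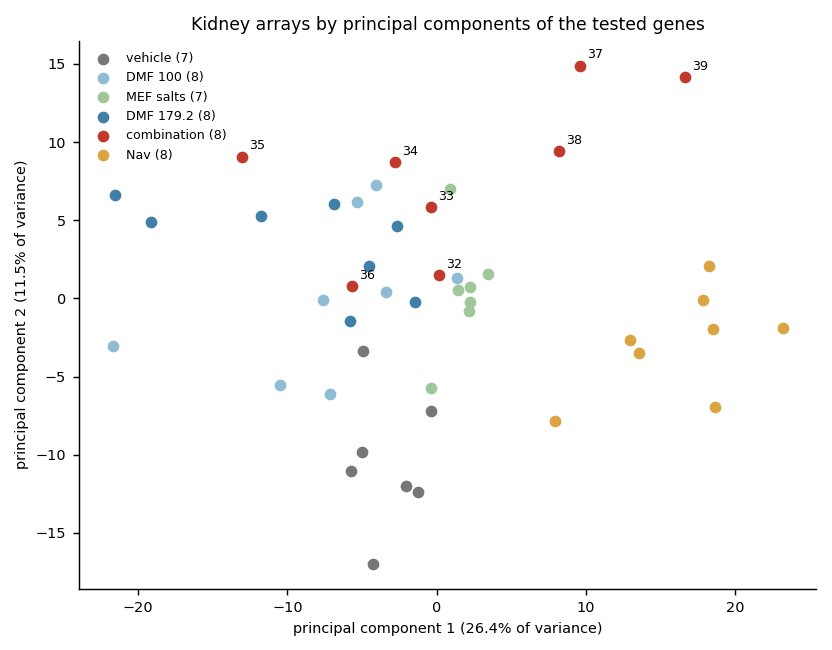
First and second principal components of the tested genes over the 46 kidney arrays, 1 point per array, coloured by group; axes give the percentage of variance. Combination arrays 37, 38 and 39 lie between 8.17 and 16.62 on the first axis, among the Nav arrays, and all 8 combination arrays lie above the vehicle arrays on the second.

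Many genes differed by a little between the combination and vehicle arrays, and few differed by much. Of 10706 genes bright enough to test, 3245 (30.3%) passed an adjusted p of 0.05 in limma, with Benjamini-Hochberg adjustment: 1891 higher (17.7%) and 1354 lower (12.6%). The median size of those differences was 0.22 on the log2 scale, and 60.1% of them were under 0.25. At 1.5-fold or more, 127 genes (1.19%) passed, 68 higher and 59 lower, and at 2-fold or more 19 were higher and 9 lower. All combination arrays lay above all vehicle arrays for 345 genes and below for 155, together 4.67% of those tested, and 74 of the 127 larger changes (58.3%) were of this kind.

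The unexplained Nav group differed from the same vehicle arrays at 5332 genes (49.8%), 3211 higher (30%) and 2121 lower (19.8%), and 163 of them (1.52% of those tested) at 1.5-fold or more. With each array centred on its median that split was 2463 higher and 2518 lower. Of the 3245 genes, 579 (5.41% of those tested) differed from Nav in the same direction too, 333 higher than both (3.11%) and 246 lower than both (2.3%), and so did 89 of the 127 larger changes. Arrays 32 to 36 alone gave 1637 genes called against vehicle; 1466 of the 3245 were among them, and 106 of the 127 kept their call.

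**Figure D2:**
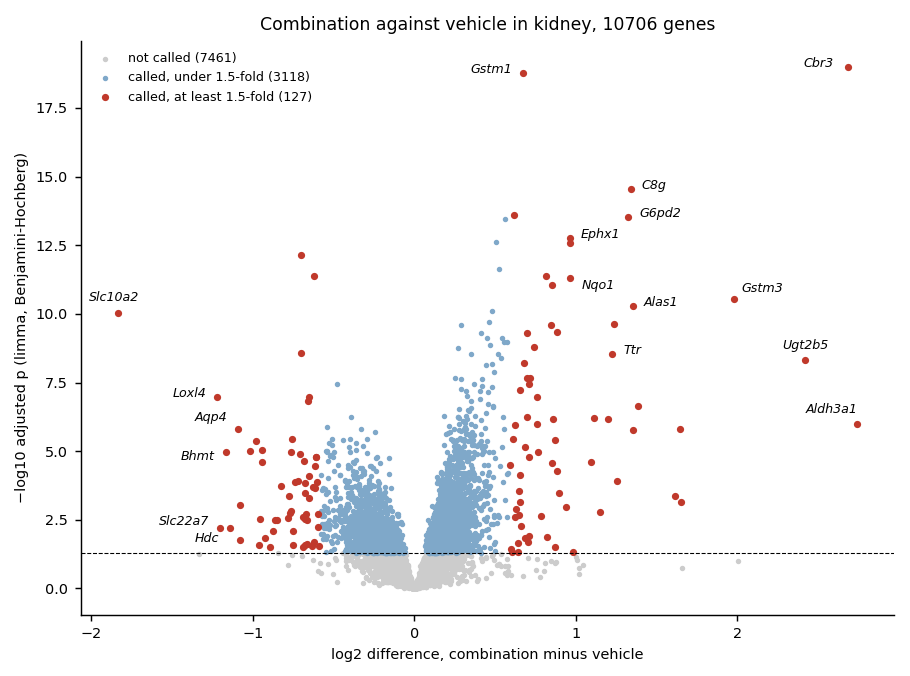
Each point is 1 of 10706 genes: the x axis is the combination minus vehicle difference in log2 expression and the y axis is -log10 of the adjusted p. Red points passed at 1.5-fold or more, blue points passed at less, grey points did not pass, and some genes of the text are labelled. Cbr3 lies farthest up on the right at a difference of 2.69 and Slc10a2 farthest left at -1.84.

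Genes that NRF2 is known to drive rose together. The list holds 55 genes, of which 48 are named on the array and 46 were bright enough to test. Of these 46, 33 rose and none fell, and 28 of the 33 were also higher than Nav; for all genes tested, 17.7% were higher than vehicle. The median difference over the list was 0.36, against 0.02 over all genes, and the median difference of Nav from vehicle over the same list was 0.04. In arrays 32 to 36 alone 36 rose and none fell. Renewed quantile normalization and centring of each array left the direction of the list in place. Among the 33, Aldh3a1, Gstm3, Pir and Ugt2b5 had no vehicle array above the brightness filter of 5.10. They entered the test through the treated arrays, where they are high, so no fold is given for these 4. Their log2 differences and p-values below describe genes selected in this way, and the sizes are not relied on. With no filter, 33 of the 48 rose. In the main test the background for each list below is the same: 17.7% of all genes were higher and 12.6% lower than vehicle. Also past Nav were 3.11% and 2.3%. With no filter 1847 of 17097 genes were higher than vehicle and 1183 lower. Arrays 32 to 36 alone gave 1122 higher and 515 lower of 10690 genes.

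The first group of these genes makes enzymes that reduce or oxidise reactive carbonyls and quinones. Cbr3, a carbonyl reductase, read 5.61 to 6.27 (median 6.17) on the vehicle arrays and 8.35 to 9.10 (median 8.75) on the combination arrays. Every combination array lay above every vehicle array, by 2.69 ± 0.13 (SE), or 6.43-fold (adjusted p = 1.01e-19), while Nav differed from vehicle by 0.20. Aldh3a1, an aldehyde dehydrogenase, read 3.52 to 4.37 (median 4.27) on the vehicle arrays and 5.41 to 7.98 (median 7.35) on the combination arrays, with a wide spread among the treated arrays. It rose by 2.74 ± 0.39 (adjusted p = 1.03e-06) without overlap, but no vehicle array lay above the filter, so that size is not relied on. Nqo1, the quinone reductase most used as a readout of NRF2, was bright in all kidneys, with 9.73 to 10.06 (median 9.92) on the vehicle arrays and 10.61 to 11.21 (median 10.87) on the combination arrays. Its groups did not overlap either, and it rose by 0.97 ± 0.08, or 1.95-fold (adjusted p = 5.13e-12); Nav differed by -0.07.

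Other oxidoreductases of the list followed. Akr1b8, an aldo-keto reductase, rose by 1.35 ± 0.20 (adjusted p = 1.76e-06) without overlap between groups. Aox1, an aldehyde oxidase, read 5.19 to 6.94 (median 5.61) on the vehicle arrays and 6.18 to 7.74 (median 7.07) on the combination arrays; the groups overlapped, and it rose by 1.25 ± 0.24 (adjusted p = 0.00012). Cbr1, the broader carbonyl reductase beside Cbr3, was already at 12.17 to 12.47 (median 12.38) on the vehicle arrays and rose by only 0.18 ± 0.04 (adjusted p = 0.000504). Pir, an iron-binding nuclear protein whose promoter is printed above, rose by 1.24 ± 0.12 (adjusted p = 2.25e-10), with 0.01 in Nav. It too had no vehicle array above the filter. Among members that keep protein thiols reduced, sulfiredoxin Srxn1 rose by 0.42 ± 0.05 (adjusted p = 2.33e-08) and thioredoxin reductase Txnrd1 by 0.29 ± 0.03 (adjusted p = 2.45e-10), both without overlap.

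Glutathione transferases, which join electrophiles to glutathione, rose too. Gstm1 read 11.94 to 12.08 (median 12.03) on the vehicle arrays and 12.61 to 12.89 (median 12.69) on the combination arrays. The whole shift was 0.67 ± 0.03, or 1.59-fold (adjusted p = 1.69e-19), with 0.01 in Nav. Gstp1 rose by 0.62 ± 0.04 (adjusted p = 2.55e-14). Gstm3 was dim at 3.77 to 3.80 (median 3.80) on the vehicle arrays and 5.32 to 6.43 (median 5.71) on the combination arrays, a rise of 1.98 ± 0.18 (adjusted p = 2.91e-11). No vehicle or Nav array of Gstm3 lay above the filter, so the size of this rise is not relied on. The probe sets of Gstm1 and Gstm3 can match more than 1 transcript, so the Gstm family members cannot be fully told apart. Ephx1, the microsomal epoxide hydrolase, rose by 0.97 ± 0.07, or 1.95-fold (adjusted p = 1.75e-13), from 9.83 to 10.28 (median 9.94) to 10.63 to 11.20 (median 10.96).

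**Figure D3:**
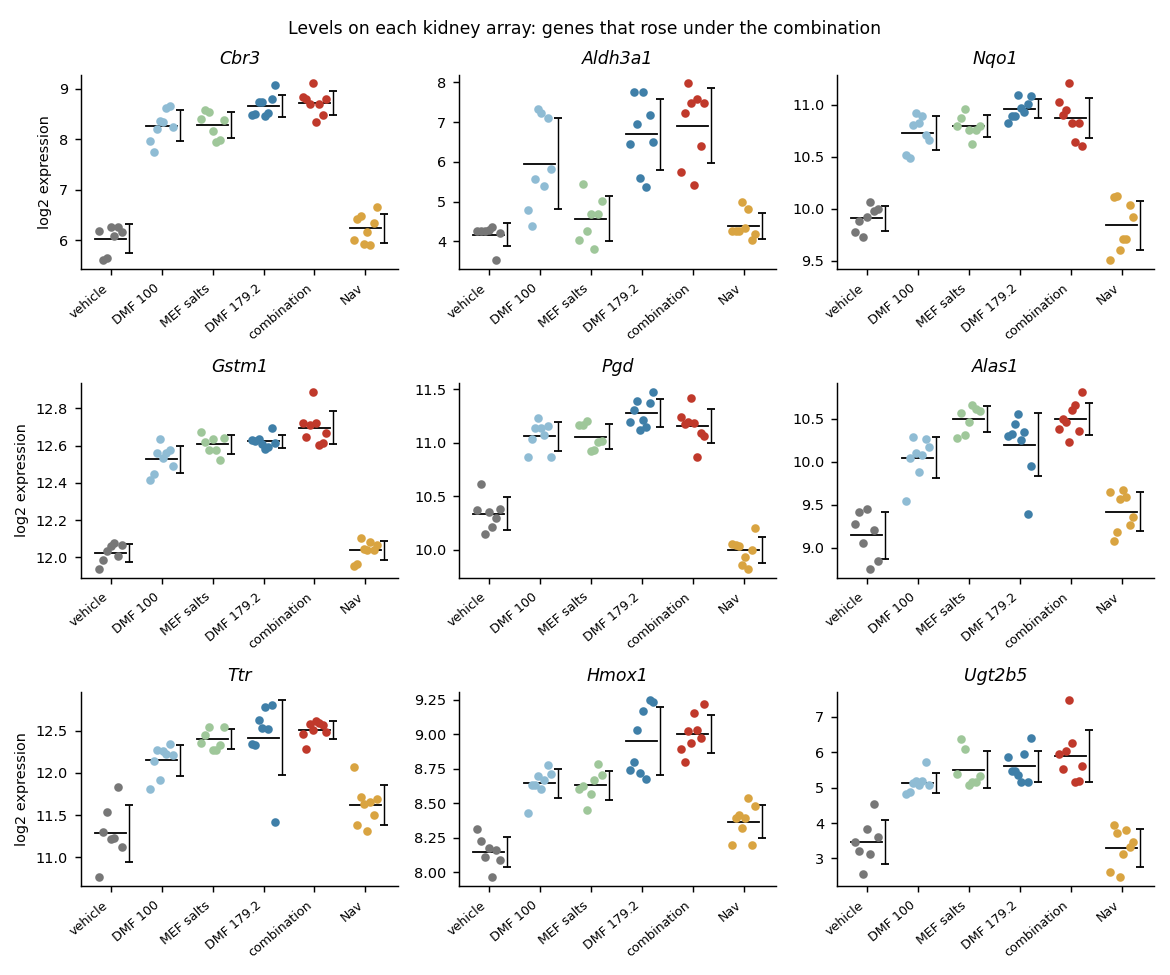
Log2 expression of 9 genes that rose, on the y axis, for the 6 kidney groups on the x axis; each point is 1 array, the line is the group mean and the bar its SD. For Cbr3, Nqo1, Gstm1, Alas1 and Ttr every combination array lies above every vehicle array, as at 10.61 to 11.21 against 9.73 to 10.06 for Nqo1.

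RNA of the ligase that limits glutathione synthesis rose for 1 of its 2 subunits. Gclm, the modifier subunit of the rate-limiting ligase and the carrier of 1 motif in the sequence above, read 10.17 to 10.35 (median 10.31) on the vehicle arrays and 10.68 to 10.89 (median 10.77) on the combination arrays and rose by 0.48 ± 0.06 (adjusted p = 4.5e-08). Gclc, the catalytic subunit, overlapped between groups at 9.95 to 10.83 (median 10.36) and 10.19 to 11.25 (median 10.60), and its difference of 0.28 ± 0.15 did not pass (adjusted p = 0.163). In the wider list of glutathione synthesis and use, 7 of 16 tested genes rose and none fell, 5 of the 7 also against Nav. Among them were glutaredoxin Glrx at 0.42 ± 0.05, glutathione reductase Gsr at 0.20 ± 0.04, the microsomal transferase Mgst3 at 0.22 ± 0.03 and the lipid peroxidase Gpx4 at 0.11 ± 0.03. Slc7a11, the cystine importer of the pathway, was at or next to the kidney's lowest value on all arrays of both groups and was not tested.

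NADPH, the electron donor for glutathione and thioredoxin reductases, comes in large part from the pentose phosphate pathway. Of 11 tested genes of this list, 6 rose and 1 fell, and 3 of the 6 were higher than Nav as well. Pgd, the second dehydrogenase of the oxidative branch, read 10.15 to 10.62 (median 10.35) on the vehicle arrays and 10.87 to 11.42 (median 11.18) on the combination arrays. It rose by 0.81 ± 0.07, or 1.76-fold (adjusted p = 4.19e-12), in a gene that Nav moved the other way (-0.34). Tkt, transketolase of the non-oxidative branch, rose by 0.45 ± 0.05 (adjusted p = 7.48e-10), and malic enzyme Me1 by 0.17 ± 0.05 (adjusted p = 0.00503). Taldo1 rose by 0.29 ± 0.04 (adjusted p = 3.38e-06), but by about as much in Nav (0.27). The probe set named G6pd2, a retrocopy of the pathway's first dehydrogenase, rose by 1.32 ± 0.10, or 2.5-fold (adjusted p = 3.07e-14); its design allows several transcripts, so the parent gene cannot be told from it. Nnt, the mitochondrial transhydrogenase, fell by 0.33 ± 0.08 (adjusted p = 0.00273), by 0.16 with arrays 32 to 36 alone (adjusted p = 0.158), and stood at -0.50 in Nav.

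RNA of genes for heme synthesis and for heme breakdown rose in part. Alas1, the rate-limiting enzyme of heme synthesis, read 8.76 to 9.45 (median 9.21) on the vehicle arrays and 10.22 to 10.81 (median 10.48) on the combination arrays. No arrays overlapped, and the rise was 1.35 ± 0.13, or 2.56-fold (adjusted p = 4.96e-11), against 0.28 in Nav. Hmox1, which opens the heme ring, rose by 0.86 ± 0.07 (adjusted p = 8.71e-12) from 7.96 to 8.31 (median 8.16) to 8.80 to 9.22 (median 9.0). Blvrb, which reduces biliverdin, rose by 0.96 ± 0.07 (adjusted p = 2.64e-13), with 0.41 in Nav, and the heme transporter Slc48a1 by 0.56 ± 0.04 (adjusted p = 3.55e-14). Over the list of heme and iron genes, 9 of 19 rose, 1 fell, and 7 of the 9 were above Nav too. The last step, Fech, rose by 0.20 ± 0.03 (adjusted p = 1.11e-05) in the probe set used, but the mean over its probe sets gave -0.0016, and Urod rose by 0.11 ± 0.03 (adjusted p = 0.0101) but stood higher still in Nav, at 0.28, and did not pass with arrays 32 to 36 alone (adjusted p = 0.0992).

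RNA of genes for conjugation with glucuronic acid and for export of conjugates rose in the same kidneys. Ugt2b5, a UDP-glucuronosyltransferase, read 2.55 to 4.54 (median 3.45) on the vehicle arrays and 5.16 to 7.46 (median 5.78) on the combination arrays. It was dim on all vehicle arrays and rose by 2.42 ± 0.27 (adjusted p = 4.86e-09), without overlap. None of its vehicle or Nav arrays lay above the filter, so that size is not relied on. Ugt2b34, another of them, rose by 0.58 ± 0.06 (adjusted p = 1.09e-09), and the enzymes that supply the sugar donor rose as well, Ugdh by 0.31 ± 0.06 and Ugp2 by 0.25 ± 0.05. In all, 7 of 12 tested genes of the glucuronidation list rose, none fell, and all 7 were higher than Nav. The median was 0.21, against -0.11 for Nav minus vehicle. Ugt2b5, 1 of the 7, entered the test through the treated arrays, where it is high. With no filter 8 of the 22 on the array rose and none fell, beside 1847 of all 17097 genes higher and 1183 lower. Close sequence among the Ugt2b genes limits how well 1 is told from another. Abcc2, the apical pump that exports conjugates into the tubule fluid and the third promoter printed above, rose by 0.49 ± 0.06 (adjusted p = 2.36e-07), from 10.07 to 10.55 (median 10.40) on the vehicle arrays to a median of 10.85 on the combination arrays, whose lowest value of 10.73 lay above all of these. Abcc4, another apical efflux pump, rose by 0.58 ± 0.11 (adjusted p = 6.3e-05).

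The regulators of the pathway moved little. Of 10 tested, Mafg, a small MAF partner and itself an NRF2 target, rose by 0.25 ± 0.06 (adjusted p = 0.000882). Nfe2l2, which encodes NRF2, fell by 0.23 ± 0.07 (adjusted p = 0.00852) and stood at -0.35 in Nav, and the competing repressor Bach1 fell by 0.16 ± 0.06 (adjusted p = 0.038). Bach1 was not called without any 1 of combination arrays 38 and 39 or vehicle arrays 2, 3, 4, 5 and 8 (adjusted p up to 0.134). Neither fall passed with arrays 32 to 36 alone (adjusted p = 0.141 and 0.467). None of the 3 passed the test against Nav. NRF2 is set mainly by protein stability, which these arrays do not measure.

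Several of the largest rises were in genes better known from liver secretion. C8g, the gamma chain of complement component 8, read 7.88 to 8.57 (median 8.31) on the vehicle arrays and 9.38 to 9.88 (median 9.58) on the combination arrays. It rose by 1.34 ± 0.09, or 2.53-fold (adjusted p = 2.81e-15), and no arrays overlapped. Ttr, the carrier of thyroxine and retinol-binding protein, was bright at 10.76 to 11.84 (median 11.22) on the vehicle arrays and 12.28 to 12.61 (median 12.54) on the combination arrays, a rise of 1.23 ± 0.13 (adjusted p = 2.82e-09). Apoc1 and Apoc2, apolipoproteins of triglyceride-rich particles, rose by 1.65 ± 0.36 and 1.38 ± 0.18 (adjusted p = 0.000681 and 2.31e-07). Apoc1 overlapped widely, at 4.72 to 8.09 (median 5.96) and 6.63 to 8.48 (median 7.57), and Apoc2, with no vehicle array above 5.10, also stood higher in Nav, at 0.84.

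Cyp2d9, a cytochrome P450, rose by 1.64 ± 0.24, or 3.12-fold (adjusted p = 1.5e-06), from 6.60 to 8.47 (median 7.26) to 8.57 to 9.67 (median 9.04). Serpina1a, an alpha-1-antitrypsin gene with near-identical copies, read 4.71 to 5.88 (median 5.54) on the vehicle arrays and 5.71 to 9.03 (median 6.94) on the combination arrays. Its highest value came from combination array 35, and without that array the rise of 1.61 ± 0.34 was 1.32 (adjusted p = 0.00107). Levels of the Cyp2d and Serpina1 copies cannot be separated with certainty on this array.

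Carboxylesterases, the enzymes that cleave ester drugs, rose in part. Of 10 tested, 4 rose and none fell: Ces2e by 0.88 ± 0.09, Ces1f by 0.48 ± 0.13, Ces1g by 0.34 ± 0.09 and Ces1e by 0.22 ± 0.08 (adjusted p = 4.68e-10, 0.00447, 0.00595 and 0.0387). Ces2e read 6.98 to 7.38 (median 7.26) on the vehicle arrays and 7.82 to 8.57 (median 8.0) on the combination arrays, and its groups did not overlap. With arrays 32 to 36 alone 3 rose and Ces1e did not pass (adjusted p = 0.132), nor did it with no filter, with centring or with the pair of groups alone, or without any 1 of combination arrays 34, 36, 38 and 39 or vehicle arrays 3, 5 and 6 (adjusted p up to 0.136). Ces1e was as high in Nav (0.24), Ces1g did not pass against Nav (adjusted p = 0.0661), and Ces1d, which read 10.85 to 11.46 (median 11.28) on the vehicle arrays, did not pass (difference 0.14 ± 0.10, adjusted p = 0.282). The enzymes that use fumarate itself hardly moved: of 20 tested genes of the fumarate and citric acid cycle list, none rose and 2 fell, and Fh1, fumarate hydratase, differed by -0.03 ± 0.04 (adjusted p = 0.573). Hcar2, the cell-surface receptor for monomethyl fumarate, was at or next to the lowest value in both groups and was not tested.

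The MEF salts also carried calcium, magnesium and zinc. Mt1, a zinc-binding metallothionein, read 11.70 to 11.87 (median 11.73) on the vehicle arrays and 11.93 to 12.20 (median 12.09) on the combination arrays and rose by 0.33 ± 0.07 (adjusted p = 0.000202); a second probe set of the gene did not pass, nor did Mt1 against Nav (adjusted p = 0.0942). Of 18 metallothioneins and zinc transporters tested, 6 rose and 3 fell, with the zinc exporters Slc30a1 at 0.19 ± 0.05 and Slc30a4 at 0.13 ± 0.04 above both vehicle and Nav; Slc30a4 was not called without combination array 36 or without vehicle array 2 (adjusted p = 0.0737 and 0.103). In the calcium and magnesium list 4 rose and 4 fell among 19, where 17.7% and 12.6% of all genes did. Cnnm4, a magnesium transporter, rose by 0.56 ± 0.08 (adjusted p = 1.54e-06) without overlap. Kl, the klotho co-receptor for the phosphate hormone FGF23, fell by 0.25 ± 0.04 (adjusted p = 1.99e-06), from 11.75 to 11.86 (median 11.83) to 11.50 to 11.73 (median 11.57). The sodium-calcium exchanger Slc8a1 fell by 0.57 ± 0.12, but Nav stood at -0.45. Against DMF alone at 179.2 mg/kg the combination differed by 0.04 for Mt1 and 0.07 for Slc30a1 (limma adjusted p = 0.719 and 0.347). For Slc30a4 and Cnnm4 it differed by 0.03 and 0.04 (adjusted p = 0.733 and 0.787). For the same genes in that order, the differences from MEF salts alone were 0.26, -0.02, 0.02 and 0.10 (adjusted p = 0.0513, 0.898, 0.901 and 0.665). From DMF at 100 mg/kg, where the pair differs by the MEF salts, they were 0.18, -0.04, -0.002 and 0.16 (limma adjusted p = 0.0446, 0.617, 0.979 and 0.145). Mt1 thus passed in that pair, though not with arrays 32 to 36 alone (difference 0.21, adjusted p = 0.109). The part of the metals in the values of this paragraph was not tested.

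The largest fall was in a transporter of the proximal tubule. Slc10a2, the apical sodium-dependent bile acid transporter, read 9.45 to 10.38 (median 10.11) on the vehicle arrays and 7.67 to 8.59 (median 8.26) on the combination arrays. Every combination array lay below every vehicle array, and Slc10a2 fell by 1.84 ± 0.17, to a level 3.57-fold lower (adjusted p = 9.65e-11). Nav was -0.40 from vehicle, and the combination minus Nav difference was -1.44 ± 0.17 (adjusted p = 2.54e-08). Slc22a7, the organic anion transporter OAT2, read 11.06 to 11.33 (median 11.19) on the vehicle arrays and 8.12 to 10.55 (median 10.28) on the combination arrays. Its arrays did not overlap and it fell by 1.20 ± 0.34 (adjusted p = 0.00636), with the lowest value on array 35. Without that array it fell by 0.94 (adjusted p = 0.0189).

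Slc22a19, another organic anion transporter, behaved in the same way. It read 12.17 to 12.36 (median 12.23) on the vehicle arrays and 10.15 to 11.79 (median 11.40) on the combination arrays and fell by 0.96 ± 0.24 (adjusted p = 0.00305), or by 0.80 without array 35 (adjusted p = 0.00861). Slco1a6, an organic anion transporting polypeptide, fell by 0.65 ± 0.08 (adjusted p = 1.08e-07) and Slc22a5, the carnitine transporter, by 0.31 ± 0.06 (adjusted p = 5.49e-05), with overlap between groups for the second alone. Slc6a20b, an imino acid transporter, fell by 0.40 ± 0.06 (adjusted p = 3.58e-06) but stood at -0.36 in Nav. Against these, Slc22a6, the main basolateral organic anion transporter OAT1, rose by 0.21 ± 0.05 (adjusted p = 0.000612). Over the whole list of proximal tubule transporters, 9 of 52 rose (17.7% of all genes did) and 17 fell (12.6% of all genes), with 4 and 8 of these also past Nav in the same direction, and the median was 0.01.

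Mep1b, the beta subunit of the brush border protease meprin, read 11.10 to 11.27 (median 11.20) on the vehicle arrays and 8.91 to 10.44 (median 10.31) on the combination arrays. It fell by 1.08 ± 0.24, to a level 2.12-fold lower (adjusted p = 0.000922), without overlap; Nav was at -0.01, and without array 35 it fell by 0.91 (adjusted p = 0.00272). Bhmt, which remethylates homocysteine with betaine, fell by 1.17 ± 0.19 (adjusted p = 1.1e-05), from 9.94 to 10.74 (median 10.46) to 8.52 to 9.70 (median 9.22). Hdc, histidine decarboxylase, overlapped at 6.95 to 8.61 (median 7.44) and 4.92 to 7.47 (median 6.52) and fell by 1.14 ± 0.32 (adjusted p = 0.00617); without array 35 it fell by 0.93 (adjusted p = 0.0177). In the amino acid list 9 of 29 rose and 8 fell. Cbs, which draws homocysteine toward cysteine, rose by 0.52 ± 0.06 (adjusted p = 2.78e-09) but by about as much in Nav (0.44).

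**Figure D4:**
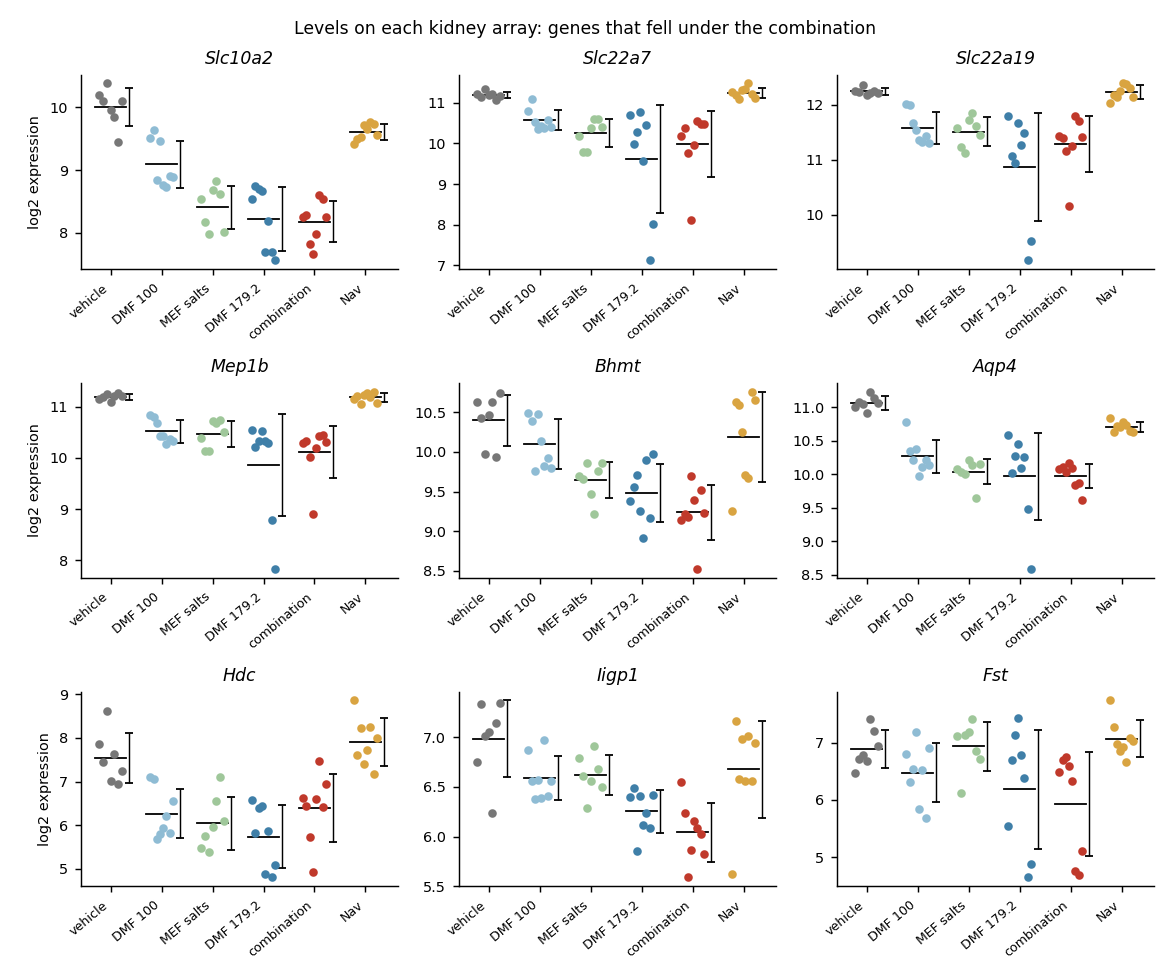
Log2 expression of 9 genes that fell, on the y axis, for the 6 kidney groups on the x axis; each point is 1 array, the line is the group mean and the bar its SD. Slc10a2 lies at 7.67 to 8.59 on the combination arrays and 9.45 to 10.38 on the vehicle arrays, and the low point of Slc22a7 and Mep1b is combination array 35.

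Aqp4, a basolateral water channel, read 10.91 to 11.23 (median 11.06) on the vehicle arrays and 9.62 to 10.16 (median 10.05) on the combination arrays. The groups did not overlap, and Aqp4 fell by 1.09 ± 0.16, to a level 2.13-fold lower (adjusted p = 1.5e-06), against -0.36 in Nav. Of 29 tested genes of the distal nephron and collecting duct, 2 rose and 10 fell, 7 of the 10 also against Nav, and 12.6% of all genes were lower than vehicle. Most of these falls were small: the potassium channel Kcnj1 fell by 0.21 ± 0.05, the sodium channel subunit Scnn1a by 0.25 ± 0.06 and the thiazide-sensitive transporter Slc12a3 by 0.16 ± 0.05 (adjusted p = 0.000756, 0.00276 and 0.00783). Pvalb, a calcium buffer of the distal convoluted tubule, fell by 0.28 ± 0.11 (adjusted p = 0.0477) but not without array 35 (difference -0.16, adjusted p = 0.156) or with arrays 32 to 36 alone (adjusted p = 0.064). The call was also lost without any 1 of combination arrays 33, 37 and 38 or vehicle arrays 1, 2, 3, 4 and 8. The mean of 3 distal convoluted tubule markers was 9.54 to 10.08 on the combination and 9.92 to 10.43 on the vehicle arrays. Those markers are Pvalb, Slc12a3 and Trpm6, so the mean holds falls given above and is no separate measure of cell content. The part of cell content in these falls was not tested.

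The remaining large falls were in genes of other kinds. Loxl4, a matrix-crosslinking oxidase, read 7.03 to 8.13 (median 7.69) on the vehicle arrays and 6.16 to 6.72 (median 6.51) on the combination arrays. It fell by 1.22 ± 0.15 (adjusted p = 1.08e-07) without overlap. Chrdl1, a secreted BMP antagonist, fell by 0.98 ± 0.15 (adjusted p = 4.2e-06), also without overlap, and Mfsd2a, a lysophospholipid transporter, by 1.08 ± 0.35 (adjusted p = 0.017) with overlap. Bex1 fell by 1.02 ± 0.16 (adjusted p = 9.57e-06) and stood at -0.75 in Nav.

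The falls of Fst and Egfl6 rested on arrays 37 to 39. Fst, follistatin, the activin antagonist, read 6.47 to 7.42 (median 6.79) on the vehicle arrays and 4.69 to 6.75 (median 6.41) on the combination arrays and fell by 0.96 ± 0.33 (adjusted p = 0.0252); with arrays 32 to 36 alone the difference was -0.32 (adjusted p = 0.547). Egfl6, a secreted EGF-repeat protein, fell by 0.92 ± 0.29 (adjusted p = 0.0142), and the same 5 arrays gave -0.21 (adjusted p = 0.598). Arrays 37 to 39 held 4.69 to 5.11 for Fst and 4.18 to 4.63 for Egfl6, below all other combination arrays, and Fst was not called without any 1 of these 3 or without vehicle array 5 (adjusted p = 0.0538 to 0.0713).

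Interferon-stimulated genes were lower. Of 17 tested, 11 fell and none rose, 6 of the 11 also against Nav; the median was -0.21, against 0.02 over all genes and 0.00 for Nav minus vehicle. Ifit1, an RNA-binding antiviral protein whose promoter with 2 motif matches is printed above, read 5.77 to 6.68 (median 6.19) on the vehicle arrays and 4.96 to 6.18 (median 5.56) on the combination arrays. Its groups overlapped, and it fell by 0.66 ± 0.17 (adjusted p = 0.00312). Usp18, which removes ISG15 from proteins, fell by 0.55 ± 0.11, and Oasl2 and the RNA sensor Ifih1 by 0.31 ± 0.08 and 0.27 ± 0.07 (adjusted p = 0.000246, 0.00504 and 0.00303). Trim30a fell by 0.46 ± 0.08 but stood at -0.46 in Nav. With arrays 32 to 36 alone 8 of the 17 fell, beside 515 of all 10690 genes. Ifit2 was not among the 8 (difference -0.13, limma adjusted p = 0.358).

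Iigp1, an interferon-inducible GTPase outside that list, was among the 15 largest falls. It read 6.24 to 7.35 (median 7.05) on the vehicle arrays and 5.59 to 6.55 (median 6.06) on the combination arrays and fell by 0.94 ± 0.16 (adjusted p = 2.43e-05), with -0.30 in Nav. Among antigen presentation genes 4 of 13 fell and none rose: the transactivator Nlrc5 fell by 0.51 ± 0.15, the class II chain H2-Ab1 by 0.34 ± 0.10 and the peptide loader subunit H2-DMb1 by 0.25 ± 0.06 (adjusted p = 0.012, 0.0124 and 0.00174). The leukocyte genes Ptprc and Csf1r were also lower. Ptprc, the CD45 phosphatase of all leukocytes, read 6.50 to 7.05 (median 6.78) on the vehicle arrays and 5.59 to 6.30 (median 5.83) on the combination arrays and fell by 0.94 ± 0.15 (adjusted p = 8.86e-06), but Nav stood as low, at -0.90. Csf1r, a macrophage receptor, fell by 0.37 ± 0.10 (adjusted p = 0.00668), or by 0.30 with arrays 32 to 36 alone (adjusted p = 0.058). Of 3 tested macrophage markers, Csf1r alone was called. Cd68 of the same list had a higher mean on the combination arrays, 6.58 against 6.37 on the vehicle arrays. The T cell gene Cd3e was level, with means of 4.796 and 4.785. The mean of all 4 macrophage markers was 5.66 to 6.01 on the combination arrays and 5.72 to 6.71 on the vehicle arrays, Cd79a and Ms4a1 of B cells were too dim to test, and the part of leukocyte number in these falls was not tested.

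A few genes of DNA replication and of tubule injury were higher. Of 22 tested cell cycle genes 9 rose and 1 fell, 5 of the 9 also against Nav, with a median of 0.25. Mcm6, part of the replicative helicase, read 7.35 to 7.56 (median 7.45) on the vehicle arrays and 7.61 to 8.03 (median 7.94) on the combination arrays and rose by 0.44 ± 0.09 (adjusted p = 0.000415) without overlap. The thymidine enzymes Tk1 and Tyms rose by 0.65 ± 0.14 and 0.34 ± 0.06 (adjusted p = 0.000693 and 1.69e-05), but also stood at 0.52 and 0.27 in Nav. E2f1, a transcription factor of S phase, rose by 0.34 ± 0.07 (adjusted p = 0.000303).

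Of 12 tested kidney injury genes 5 rose and none fell, 3 of the 5 also against Nav. Beside them, 17.7% of all genes were higher than vehicle and 3.11% higher than both. With arrays 32 to 36 alone 3 rose, beside 1122 of all 10690 genes. With no filter 3 of the 19 on the array rose and none fell, beside 1847 of all 17097 genes higher and 1183 lower. Krt18 and Krt19, keratins of stressed or simple epithelium, rose by 0.37 ± 0.08 and 0.66 ± 0.18 (adjusted p = 0.0009 and 0.00553), and with arrays 32 to 36 alone Krt19 did not pass (adjusted p = 0.0555). Fibrinogen chain Fgg rose by 0.63 ± 0.16 (adjusted p = 0.00246). Lcn2, the secreted injury marker NGAL, read 5.92 to 7.20 (median 6.95) on the vehicle arrays and 6.98 to 10.18 (median 7.37) on the combination arrays. The highest value was array 35, and without it the rise of 0.98 ± 0.38 (adjusted p = 0.0454) was 0.63 (adjusted p = 0.141). It also missed the threshold without any 1 of combination arrays 32 and 38 or vehicle arrays 2, 4, 6 and 8, and with arrays 32 to 36 alone (adjusted p = 0.0538). Havcr1, the injury marker KIM-1, looked up after other values were seen, was near the lowest value in both groups, with means of 2.30 on the combination and 2.19 on the vehicle arrays. The urothelial marker mean was 6.03 to 6.80 on the combination and 5.52 to 6.43 on the vehicle arrays, and its part in the keratin values was not tested.

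Of 12 genes that differ between the female and male kidney, 3 rose and 4 fell, beside 17.7% and 12.6% of all genes. Besides Slc22a7 and Slc22a19 above, the amino acid transporter Slc7a12 fell by 0.49 ± 0.13 (adjusted p = 0.0052), while Cyp2e1 and Cyp7b1 rose by 0.57 ± 0.14 and 0.43 ± 0.08 (adjusted p = 0.00248 and 3.18e-05). In the renin-angiotensin list 1 of 8 rose and 2 fell: converting enzyme Ace fell by 0.46 ± 0.14 (adjusted p = 0.0147) while it stood at 0.41 in Nav, and with arrays 32 to 36 alone its adjusted p was 0.0513. Podocyte and glomerulus genes counted 3 lower of 13, where Synpo of the podocyte foot process fell by 0.29 ± 0.07, and none of the 3 was also lower than Nav.

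Many other programmes showed counts near or under the share of all genes called. In the heat shock list 1 of 16 rose, in the clock list 1 of 18 fell, among immediate early and glucocorticoid-responsive genes 1 of 19 rose, and in the respiratory chain 1 of 31 rose and 2 fell. Of 23 unfolded protein and ATF4 genes 3 rose and 4 fell, of 19 cholesterol and fatty acid synthesis genes 1 and 2, and of 26 PPAR-alpha and fatty acid oxidation genes 3 and 5. None of the heat shock, clock, immediate early, respiratory chain, unfolded protein or cholesterol calls was also past Nav in the same direction. Proteasome subunits, part of which are NRF2 targets, counted 8 higher and 3 lower of 31, but none of them was also past Nav in the same direction.

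**Figure D5:**
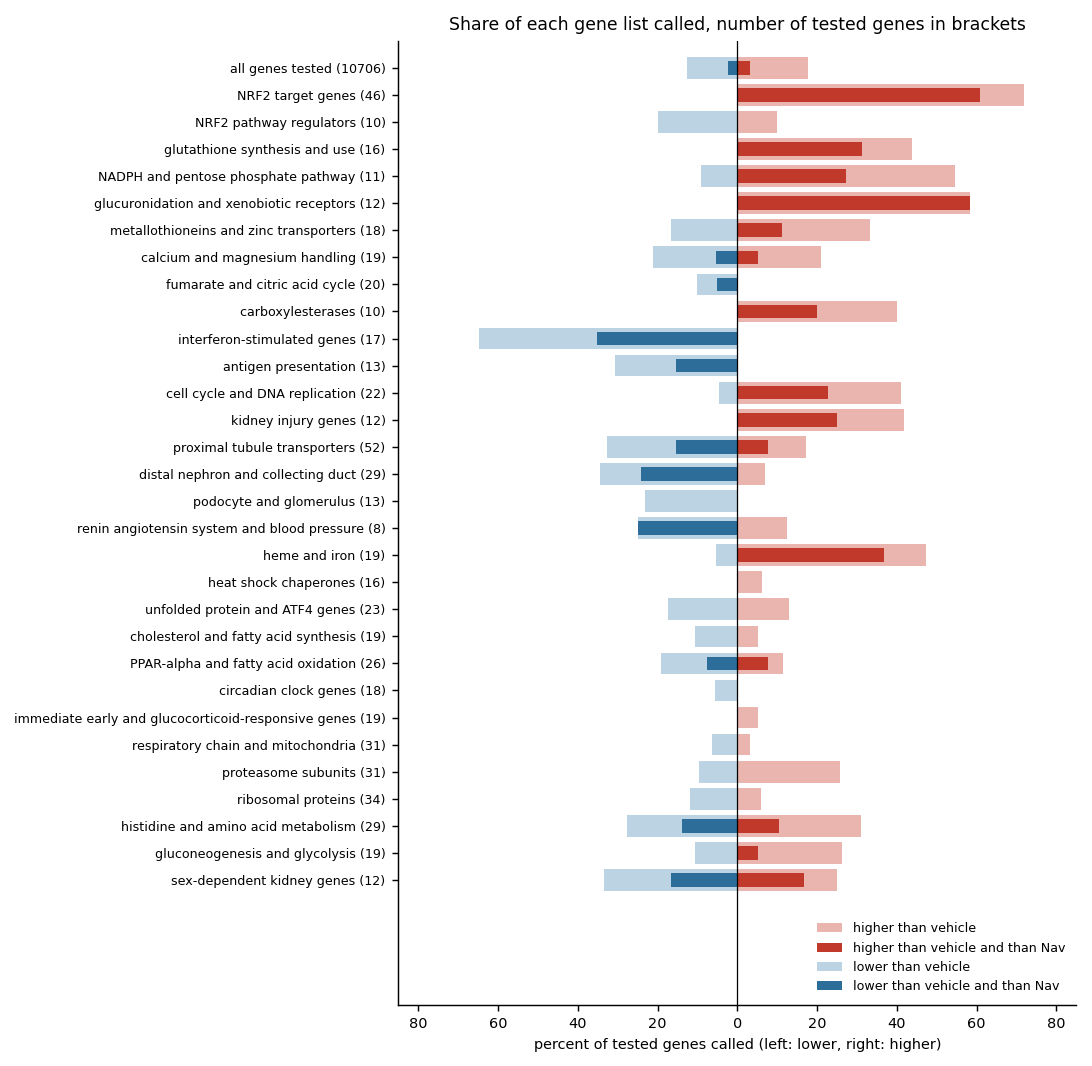
Percent of the tested genes of each list (number tested in brackets) called higher than vehicle, to the right, or lower, to the left, on the x axis; pale bars count all calls against vehicle and dark bars those also past Nav in the same direction, with all 10706 genes in the top row. Of the 46 NRF2 target genes 33 were higher and 28 of these also above Nav, and of the 17 interferon-stimulated genes 11 were lower.

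The design holds arms that separate the parts of the combination. In these, 3 pairs were compared directly, each with p-values adjusted over all 10706 genes, and the arms share the combination arrays. Against MEF salts at the same MEF dose, where the pair differs by DMF at 100 mg/kg, 50 genes differed (0.467%), 43 higher (0.402%) and 7 lower (0.0654%), and 6 of them (0.056% of those tested) by 1.5-fold or more. Of the 46 NRF2 targets 7 were higher than with MEF salts and none lower, with a median difference of 0.09. Aldh3a1 was higher by 2.35 ± 0.39 (adjusted p = 0.00118), Akr1b8 by 0.87 ± 0.20 (adjusted p = 0.0195) and Aox1 by 0.97 ± 0.24 (adjusted p = 0.0447). Of these, Aldh3a1 passed the brightness filter through treated arrays alone, so its size is not relied on. Ephx1 was higher by 0.43 ± 0.07 (adjusted p = 0.00187) and Hmox1 by 0.37 ± 0.07 (adjusted p = 0.00858). Outside that list Cbr2, another carbonyl reductase, was higher by 0.74 ± 0.16 and Oit1 by 0.71 ± 0.14 (adjusted p = 0.0127 and 0.00532).

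Among the few genes lower than with MEF salts, the difference was -0.42 ± 0.10 for the integrin subunit Itgb6, -0.30 ± 0.06 for the transcription factor Creb1, -0.27 ± 0.07 for Rybp, -0.26 ± 0.05 for Tspyl4 and -0.24 ± 0.05 for Sec63, of the protein translocation channel (adjusted p = 0.0377, 0.0095, 0.0469, 0.00907 and 0.0174). Another probe set of Creb1 moved the opposite way against vehicle. For other members the pair did not differ beyond the test: Cbr3 differed by 0.43 ± 0.13 (95% interval 0.17 to 0.70, adjusted p = 0.138) and Slc10a2 had an interval of -0.58 to 0.12 (adjusted p = 0.625). Arrays 32 to 36 alone gave 85 genes that differed, 55 higher and 30 lower, Itgb6 and Sec63 no longer passed (adjusted p = 0.125 and 0.143), nor did Aox1 and Rybp (0.0614 and 0.0537).

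Against DMF at the same 100 mg/kg, where the pair differs by the MEF salts, 1566 genes differed (14.6%), 951 higher (8.88%) and 615 lower (5.74%), and 38 (0.355%) by 1.5-fold or more. Centring each array on its median turned that split to 589 higher and 688 lower, so the balance of directions depends on the scaling. Of the NRF2 targets 11 were higher than with DMF alone (8.88% of all genes were) and none lower. With arrays 32 to 36 alone 9 were higher, beside 277 of all 10690 genes. Gstm3 was higher by 0.81 ± 0.17 (adjusted p = 0.00213), Cbr3 by 0.45 ± 0.13 (adjusted p = 0.0149) and Gstm1 by 0.17 ± 0.03 (adjusted p = 0.000965). Of these, Gstm3 passed the brightness filter through treated arrays alone, so its size is not relied on. Alas1 was higher by 0.45 ± 0.12 (adjusted p = 0.0109). On the lower side the difference was -0.92 ± 0.17 for Slc10a2 (adjusted p = 0.000594) and -0.87 ± 0.18 for Bhmt (adjusted p = 0.00169).

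The largest differences from DMF alone were mostly in genes outside the NRF2 list. Angptl4, a lipoprotein lipase inhibitor, was higher by 1.33 ± 0.38, Lcn2 by 1.14 ± 0.37, the clock output gene Dbp by 1.07 ± 0.29, Klf11 by 1.01 ± 0.22 and Bcl6 by 0.81 ± 0.19 (adjusted p = 0.0149, 0.0316, 0.012, 0.00184 and 0.00481). Lower than with DMF alone were Cebpd at -1.08 ± 0.25, the cold-inducible Rbm3 at -0.99 ± 0.13 and the clock gene Npas2 at -0.86 ± 0.17 (adjusted p = 0.0039, 1.16e-05 and 0.000965). Against vehicle, Angptl4, Dbp, Klf11, Bcl6 and Rbm3 did not pass (adjusted p = 0.406, 0.154, 0.729, 0.424 and 0.4). In arrays 32 to 36 alone 341 genes differed from DMF alone, and Lcn2, Cbr3 and Alas1 were not among them (adjusted p = 0.062, 0.0561 and 0.117).

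Against DMF alone at 179.2 mg/kg, the same summed mass of ester, 1222 genes differed (11.4%), 532 higher (4.97%) and 690 lower (6.44%), and 12 (0.112%) by 1.5-fold or more. Centring gave 350 higher and 669 lower. With arrays 32 to 36 alone 16 genes differed, so most of this count was not found without arrays 37, 38 and 39. The NRF2 targets were close to evenly placed, with 2 higher, 1 lower and a median difference of 0.02. The interval of the difference was -0.20 to 0.31 for Cbr3 and -0.25 to 0.07 for Nqo1, both within 0.4 of 0 on the log2 scale, and neither passed (adjusted p = 0.804 and 0.475). Gclm was higher by 0.20 ± 0.06 (adjusted p = 0.0212), though not with arrays 32 to 36 alone (adjusted p = 0.221).

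The largest single differences from DMF at 179.2 mg/kg lay outside the pathway. Sprr2a1, an epithelial cornification gene, was higher by 0.81 ± 0.21, the urothelial gene Upk1b by 0.64 ± 0.19, the protease Napsa by 0.61 ± 0.17, the lipid droplet gene Plin5 by 0.54 ± 0.16 and Id1 by 0.54 ± 0.11 (adjusted p = 0.0146, 0.0273, 0.0181, 0.0295 and 0.00391). On the lower side Clca3a1 stood at -0.93 ± 0.22, Zdhhc20 at -0.87 ± 0.21, the kallikrein Klk1b16 at -0.76 ± 0.13, Asb15 at -0.75 ± 0.22 and Cebpd at -0.74 ± 0.25 (adjusted p = 0.00798, 0.0104, 0.00101, 0.0237 and 0.0481). With arrays 32 to 36 alone, Klk1b16 was the only 1 of these 10 to pass (adjusted p = 0.0355). Klk1b16 did not differ between combination and vehicle (adjusted p = 0.995). No combination array of Clca3a1 or Zdhhc20 lay above the brightness filter, so the sizes of their differences are not relied on.

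The single arms, which share the same vehicle arrays, can be set beside the combination for some of the named genes. For Cbr3 the difference from vehicle was 2.23 with DMF at 100 mg/kg, 2.25 with MEF salts, 2.63 with DMF at 179.2 mg/kg and 2.69 with the combination. For Aldh3a1 the values were 1.78, 0.40, 2.53 and 2.74 in the same order. It had no vehicle array above the brightness filter, so these sizes and their ranking are not relied on. For Nqo1 they were 0.82, 0.89, 1.06 and 0.97. For Slc10a2 the differences were -0.92, -1.60, -1.79 and -1.84, with DMF at 100 mg/kg the closest to vehicle. Ifit1 stood at -0.48, -0.62, -0.44 and -0.66, below vehicle in each arm. These values carry the spread of 1 set of vehicle arrays and are not independent of each other.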

How the data were processed

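The authors deposited log2 expression values of 45141 probe sets; the submitters' processing notes name RMA, GCRMA, R 2.11.1 and limma 3.4.5, without saying which did which step. The 46 kidney arrays share 1 lowest value and array medians of 5.02 to 5.15, and were used as deposited. Of the probe sets, 28898 carry 1 gene symbol in the platform annotation, 551 carry several and 15692 none; 28689 of the first matched RefSeq GRCm38.p6. Where a gene had several probe sets, the brightest by its mean on all 308 arrays was used, and 10706 genes above the kidney's 50th percentile (5.10) on at least 5 arrays were tested. limma 3.58.1 in R 4.3.3 fitted 1 mean for each of 6 kidney groups, with Benjamini-Hochberg adjustment over all genes tested and a call at 0.05. Groups came from the sample titles, since another label gives the combination and DMF at 100 mg/kg the same text. The script was tested on simulated data.

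The members and gene lists were chosen with earlier results of these data known. Named genes were the 15 largest called changes each way, up to 6 called members of each list by adjusted p, a fixed set, and the 5 largest each way in each direct comparison. Marker means are means of log2 values. The number of arrays limits the precision. Promoters came from RefSeq, and no genome or protein sequence was used here.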

Additional observations from a re-analysis of the deposited data

Results flagged for a closer look

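Each of 137 named genes was checked in the combination and in the vehicle arrays for an array that stood apart from the rest of its group by more than Dixon's 95% critical value. Of 274 such groups 30 held one. The 274 include groups with every array at the lowest value, as for Kdm5d, Eif2s3y and Uty, which could not be flagged. Chance alone gives about 1 in 20 for independent groups with a normal spread, and these genes share the same 15 arrays. The 2 rates are therefore not strictly comparable. Beside each log2 value stand the nearest other array and the gap as a ratio of the group's range.

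Combination array 35 was apart most often. It was the highest array for Fgg at 9.632 (nearest other array 9.348, ratio 0.533), Gstm1 at 12.89 (nearest other array 12.72, ratio 0.585), Lcn2 at 10.18 (nearest other array 7.723, ratio 0.768), Ugt2b34 at 12.15 (nearest other array 11.88, ratio 0.652) and Ugt2b5 at 7.461 (nearest other array 6.25, ratio 0.527). It was the lowest for Mep1b at 8.909 (nearest other array 10.01, ratio 0.719), Pvalb at 8.968 (nearest other array 9.777, ratio 0.716), Slc22a19 at 10.15 (nearest other array 11.16, ratio 0.614) and Slc22a7 at 8.125 (nearest other array 9.755, ratio 0.672). Without it Lcn2 and Pvalb did not pass against vehicle in limma (adjusted p = 0.141 and 0.156), and the other 7 of these 9 genes kept their call.

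Combination array 37 was the highest for Cebpd at 7.057 (nearest other array 6.496, ratio 0.575) and Cnnm4 at 7.754 (nearest other array 7.41, ratio 0.721) and, among genes near the lowest kidney value, for Havcr1 at 2.915 (nearest other array 2.413, ratio 0.681), Hcar2 at 2.319 (nearest other array 2.197, ratio 0.678) and Slc7a11 at 2.154 (nearest other array 2.14, ratio 1). Combination array 39 was the lowest for Angptl4 at 7.541 (nearest other array 8.768, ratio 0.603), Cbr1 at 12.42 (nearest other array 12.51, ratio 0.578) and Npas2 at 6.741 (nearest other array 7.597, ratio 0.62) and the highest for Dbp at 8.035 (nearest other array 6.873, ratio 0.544). Of the others, array 33 was the lowest for Ttr at 12.28 (nearest other array 12.46, ratio 0.542) and array 36 for Synpo at 10.39 (nearest other array 10.6, ratio 0.566).

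Vehicle array 1 was the lowest for Klk1b16 at 5.163 (nearest other array 5.494, ratio 0.649). Vehicle array 2 was the highest for Tkt at 12.8 (nearest other array 12.54, ratio 0.665). Vehicle array 2 was the lowest for Gclm at 10.17 (nearest other array 10.29, ratio 0.679), Gstm3 at 3.768 (nearest other array 3.795, ratio 0.865) and Slc30a4 at 9.516 (nearest other array 9.712, ratio 0.624). Vehicle array 3 was the highest for Havcr1 at 2.3 (nearest other array 2.178, ratio 0.76), Mt1 at 11.87 (nearest other array 11.76, ratio 0.648) and Slc22a19 at 12.36 (nearest other array 12.25, ratio 0.572). Vehicle array 6 was the highest for Ms4a1 at 2.473 (nearest other array 2.397, ratio 1). Vehicle array 6 was the lowest for Aldh3a1 at 3.522 (nearest other array 4.201, ratio 0.8).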

How the results depend on the processing

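Of 118 named genes called against vehicle, 109 to 117 kept direction and call under each setting that tested all of them. With the 70th percentile filter 91 of the 91 tested did, with probe sets averaged 105 of 111, and with combination arrays 32 to 36 alone, chosen after seeing the data, 96 of 118. The exceptions in direction were Creb1 (0.059) and Fech (-0.0016) when probe sets were averaged per gene, and Zdhhc20 (0.094) with the probe set of highest mean in kidney; the cause was not tested. The 3245 genes called against vehicle became 2449 to 3536 on leaving out 1 array (lowest without combination array 39, highest without array 35), 1637 with arrays 32 to 36, which has fewer samples, and 579 where the call against Nav was also asked. The 1566 against DMF at 100 mg/kg became 631 with hybridisation controls as a covariate, 705 with the 2 groups alone and 341 with arrays 32 to 36. The 50 against MEF salts became 304 with array weights, 26 with the 2 groups alone and 85 with arrays 32 to 36. The 1222 against DMF at 179.2 mg/kg became 669, 646 and 92 with array weights, the covariate and the 2 groups alone, and 16 with arrays 32 to 36. The 5332 of Nav against vehicle became 3143 with the covariate and 8030 with every probe set on its own, which tests 16763. For these the cause was not tested beyond the smaller or larger number of samples or tests. No paired analysis was possible because the combination arrays and the vehicle arrays share no replicate number. Dim genes near 2.14 limit what could be measured: 10706 of 17097 genes were bright enough to test.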
